A study of Homo sapiens with 6 samples.

Results

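The nuclear genes for the subunits of respiratory complexes II, III, IV and V, with the electron carrier cytochrome c, were examined in Kasumi-1 cells kept with control or with I1. The 40 genes were taken by name from a fixed list, older ATP synthase names accepted, and all 40 were found among the 29810 genes of the deposited table. They comprise 4 genes of complex II, 10 of complex III and cytochrome c, 11 of complex IV and 15 of the ATP synthase. The rule goes by gene name and uses no measured value, although the list was drawn up with earlier results of these data known.

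Kasumi-1 is an established human acute myeloid leukaemia line of myeloblast type that carries the RUNX1-RUNX1T1 fusion. Total RNA was taken after 48 h from 3 control samples (agent given as control, no vehicle stated) and from 3 samples with 0.125 µM I1, a compound known here by its code name, and its messenger RNA was sequenced. All 6 samples are of this 1 line, so the data describe 1 cell model. The labels do not state whether the 3 samples of a group were grown separately, and the p-values therefore reflect only how far these samples spread, for which a technical source is possible.

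Complex II, succinate dehydrogenase, oxidises succinate to fumarate and passes the electrons to ubiquinone, which links the citric acid cycle to the respiratory chain. Complex III moves electrons from ubiquinol to cytochrome c, complex IV passes them to oxygen, and complex V, the ATP synthase, uses the proton gradient that the pumping complexes build. Complex II is encoded by nuclear genes throughout, whereas complexes III, IV and V also hold subunits encoded in mitochondrial DNA, so that both genomes supply them. The factors NRF1, GABPA (of the ETS family) and YY1 are known to bind promoters of many nuclear respiratory genes.

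The DNA before the start sites is shown because these factors recognise short motifs in it. RefSeq promoter entries (GRCh38.p14, 250 bases before to 50 after the start) existed for 32 of the 40 members. The NRF1 core GCGCANGCG was found on either strand in 12 of the 32 promoters (37.5%), against 8.05% of all 27305 promoters and 16.5% of those of the 8445 tested genes with an entry. The ETS core CCGGAAG was found in 14 (43.8%), against 10.7% of all promoters and 21.3% of those of tested genes. The YY1 core AAGATGGCG was found in 3 (9.38%), against 1.85% and 4.45%, and the Sp1 motif GGGGCGGGG in 3 (9.38%), against 16.0% and 28.1%. Matches to different motifs did not overlap. A match is a description of letters, not a bound site.

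Of the 32 stretches of 250 bases, 31 touched at least 1 annotated exon, of the member or of a neighbour, and 11 held an exon of a protein-coding gene on the opposite strand. Among these, the upstream window of ATP5PF held exon bases of GABPA, which encodes the ETS factor itself, that of SDHD exon bases of TIMM8B and that of COX4I1 exon bases of EMC8. Exon-free stretches of at least 200 bases with a whole match were printed for 3 members, chosen after the matches were seen, to show the motifs in their surroundings. They read 5′ to 3′ on the gene's strand, with motif matches in capitals. The COX5B stretch (chr2:97645812-97646039, plus strand) holds an Sp1 match and an ETS match.
COX5B: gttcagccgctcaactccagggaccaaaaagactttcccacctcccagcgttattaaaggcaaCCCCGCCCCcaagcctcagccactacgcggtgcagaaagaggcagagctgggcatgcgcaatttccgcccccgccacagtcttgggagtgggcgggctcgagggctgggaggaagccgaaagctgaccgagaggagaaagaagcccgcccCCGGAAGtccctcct
The COX6A1 stretch (chr12:120437863-120438089, plus strand) holds an NRF1 match.
COX6A1: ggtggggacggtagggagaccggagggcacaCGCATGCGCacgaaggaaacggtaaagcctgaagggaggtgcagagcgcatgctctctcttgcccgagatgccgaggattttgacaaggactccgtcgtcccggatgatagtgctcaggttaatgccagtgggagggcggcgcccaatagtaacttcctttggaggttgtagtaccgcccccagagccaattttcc
The UQCR11 stretch (chr19:1605491-1605712, minus strand) holds ETS matches on both strands.
UQCR11: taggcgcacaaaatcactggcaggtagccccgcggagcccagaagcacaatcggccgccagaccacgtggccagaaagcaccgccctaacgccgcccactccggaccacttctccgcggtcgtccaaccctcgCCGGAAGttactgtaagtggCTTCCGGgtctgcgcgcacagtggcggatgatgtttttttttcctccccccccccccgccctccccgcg

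Around SDHA, SDHD, UQCRC1 and ATP5PF the matches lie in bases that are also exons, and only a window of 10 bases on either side was read, again with the match in capitals. SDHA held 4 copies of the NRF1 core, each starting 49 bases after the one before, at chr5:218144-218172, chr5:218193-218221, chr5:218242-218270 and chr5:218291-218319 (plus strand).
SDHA, farthest from the start: ggtccgctttGCGCAGGCGcggcgccccc
SDHA, next: gtggcatggtGCGCAGGCGcgatgtcccc
SDHA, next: ccggcgtggtGCGCAGGCGcggtatcccc
SDHA, nearest to the start: ccggtgtggtGCGCAGGCGcagtctgcgc
SDHD held an NRF1 core that reads on both strands at chr11:112086753-112086782 (plus strand), and UQCRC1 held 2 cores, of which the farther from the start is shown, at chr3:48609674-48609702 (minus strand).
SDHD: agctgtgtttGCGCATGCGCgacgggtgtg
UQCRC1: tacggtactgCGCCTGCGCcgcgaccgcc
ATP5PF had a match to each of NRF1, YY1 and ETS, at chr21:25735156-25735184, chr21:25735093-25735121 and chr21:25735068-25735094 (minus strand), and was the only member with all 3.
ATP5PF, NRF1: cactcaaagaGCGCATGCGtacagagcaa
ATP5PF, YY1: aggcgaagaaAAGATGGCGgaggctgtgc
ATP5PF, ETS: gccaggggacCCGGAAGcacttaccct

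Expression is given as FPKM, that is, fragments counted on a gene divided by its annotated exon length and by a library total. Comparisons of level between genes therefore depend on that length. The library totals recovered from the values lay between 17331000 and 18204000 fragments in control and between 16391000 and 16948000 with I1, so 1 read in a kilobase was worth 0.0549 to 0.0610 FPKM. Kasumi-1 identity was read from 8 myeloblast markers, all 8 measured at means of 12.7 to 7383 FPKM, among them MPO, the granule peroxidase (8054 ± 1219 FPKM in control and 6712 ± 357 with I1, SD, n = 3 each). Of 14 markers of other cells, 10 had values and 9 of these were too low to test, with KRT8 at 0 in all 6 libraries. EPCAM, an epithelial adhesion protein, was the exception at 25.0 ± 2.33 FPKM in control and 28.4 ± 2.49 with I1.

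The members were abundant transcripts. Of the 40, 39 passed the filter of at least 1 FPKM in at least 3 libraries, and their median level was 28.6 FPKM, their median position being percentile 88.4 of the 11913 genes tested. By FPKM the order of levels was led by ATP5F1B, the catalytic beta subunit of the ATP synthase. Its mean over the 6 libraries was 474.9 FPKM, 3.38-fold above the next, UQCRH (140.4 FPKM). CYC1 (131 FPKM), COX5A (116 FPKM) and ATP5F1C (116 FPKM) followed, and from UQCRH on these neighbours overlapped in their ranges over libraries. When reads of all exons were divided by coding length instead, COX7C ranked 1 and ATP5F1B 2. ATP5ME, subunit e of the ATP synthase, was lowest and failed the filter: its 3 control values were 0.701, 0.246 and 0 FPKM and its 3 I1 values 0.389, 0.377 and 0.128 FPKM, from at most 12 reads. The count of 0 in control replicate 3 allows up to 0.180 FPKM (3 reads, counting error only).

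**Figure D1:**
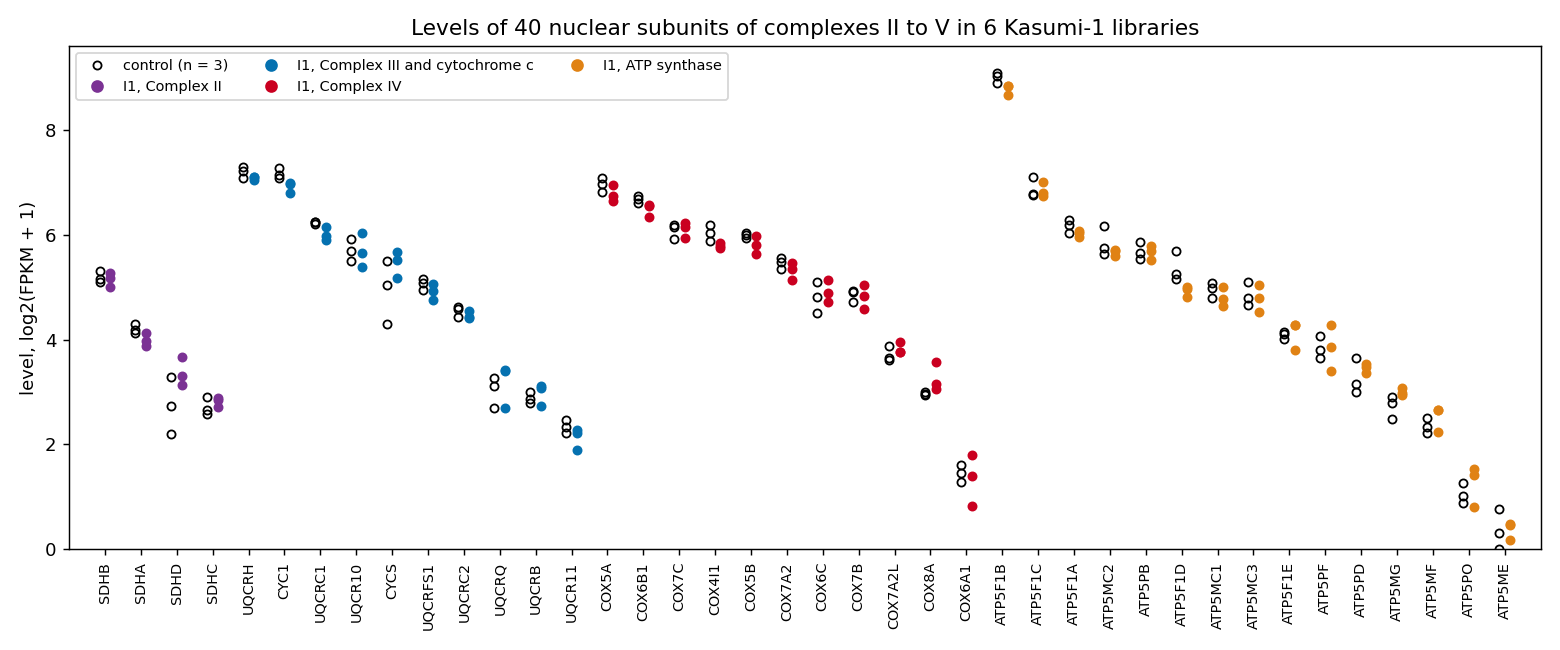
Level of each of the 40 members in each library, as log2(FPKM + 1), within each complex from the highest mean to the lowest. Open circles are the 3 control libraries and filled circles the 3 I1 libraries, coloured by complex. Both sets of circles lie close together for most members, and ATP5F1B stands highest.

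Members of 1 complex differed widely in level although their proteins assemble together. Over all 39 tested members the mean level ran from 1.26 FPKM (ATP5PO) to 474.9 FPKM. A feature that the choice of members did not use went with the low end of that range. In the GENCODE release 29 annotation, 7 members share 44.6% to 100% of their coding bases with exons of another protein-coding gene on the same strand: ATP5MF, SDHD, COX6A1, COX8A, ATP5MG, ATP5PO and UQCR11. Their mean levels lay between 1.26 and 7.79 FPKM with a median of 4.44 FPKM, whereas the other 33 members had a median of 35.1 FPKM. All 7 were among the 11 members below 9 FPKM, a mark set after the levels were seen, and none was among the 29 at or above it. The other 4 low members were SDHC, UQCRB, UQCRQ and ATP5ME. Counting both strands, their shared coding bases were 0%, 2.78%, 1.22% and 44.0% in that order. Whether reads were counted by strand was not given. The annotated exons of SDHC and UQCRB, by which FPKM divides, come to 14160 and 9715 bases. UQCR11, a small subunit of complex III, lay with all its coding bases inside exons of another protein-coding gene and had control values of 3.63, 4.53 and 4.05 FPKM and I1 values of 2.72, 3.65 and 3.86 FPKM. COX6A1, a subunit of complex IV, had 53.5% of its coding bases shared and control values of 1.43, 2.06 and 1.72 FPKM and I1 values of 0.772, 1.62 and 2.46 FPKM. ATP5PO, the stalk subunit known as OSCP, had 62.6% shared and control values of 0.840, 1.40 and 1.02 FPKM and I1 values of 0.750, 1.87 and 1.68 FPKM. The groups overlapped for these 3 genes. Levels of the 7 are uncertain, because reads in shared exons could be assigned to either gene or to neither, and the part of this in their levels was not tested.

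**Figure D2:**
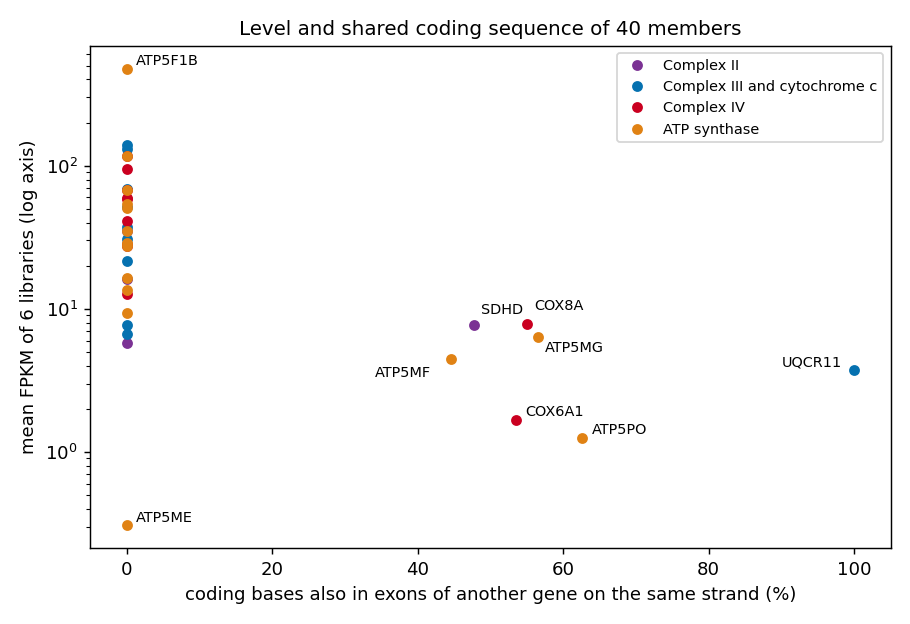
Mean FPKM of each member over 6 libraries (log axis) against the share of its coding bases that also lie in exons of another gene on the same strand (percent), coloured by complex. The 7 members with a share above 0 sit between 1.26 and 7.79 FPKM. ATP5ME is the lowest of the members at 0, and its share is 44.0% when both strands are counted.

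No member passed the threshold for a difference between I1 and control, a Benjamini-Hochberg adjusted p under 0.05 from limma on log2(FPKM + 1) together with a log2 difference of at least 1 in size. The count was 0 of 39 members, where 4 of all 11913 genes (0.0336%) passed, and the smallest adjusted p of a member was 0.467. At an unadjusted limma p under 0.05, 2 of 39 members (5.13%) were found, against 9.57% of all genes tested. These were ATP5F1D, lower with I1 (1 of 39, against 2.77% of all genes), and SDHD, higher with I1 (1 of 39, against 6.8%). Such shares are near or below the background and are not a result about the members. The fitted differences ran from -0.44 (ATP5F1D) to 0.64 (SDHD), with a median of -0.03, where the median over all genes tested was 0.03. The difference was below 0 for 24 of 39 members (61.5%), against 45.5% of all genes. In these bulk samples a lower value from fewer cells of a type and one from less RNA per cell cannot be told apart.

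The counts of groups that did not overlap ran the same way. In 6 of 39 members (15.4%, against 8.74% of all genes tested) every I1 library was below every control library: UQCRC1, CYC1, COX4I1, COX6B1, ATP5F1B and ATP5F1D. Every I1 library was above every control library in 2 members (5.13%, against 12.9%), COX8A and ATP5MG. Samples that carry the same number in their titles were taken as pairs. The I1 library was the lower in 3 of 3 pairs for 17 members (43.6%, against 25.8%) and the higher in 3 of 3 pairs for 8 (20.5%, against 32.1%). The median difference of the members was -0.17, -0.06 and -0.02 in pairs 1, 2 and 3, where that of all genes was 0.09, 0.02 and 0.00. With a replicate block in the fit, 8 members (20.5%) had an unadjusted limma p under 0.05, against 27.1% of all genes. Of these, 6 were lower with I1 (15.4%, against 9.96%), namely SDHA, UQCRC1, CYC1, COX4I1, ATP5F1B and ATP5F1D, and 2 were higher (5.13%, against 17.1%), namely SDHD and CYCS. None of them passed the adjusted threshold with the block, where 6 of all genes did (0.0504%), and the smallest adjusted p of a member was 0.140.

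**Figure D3:**
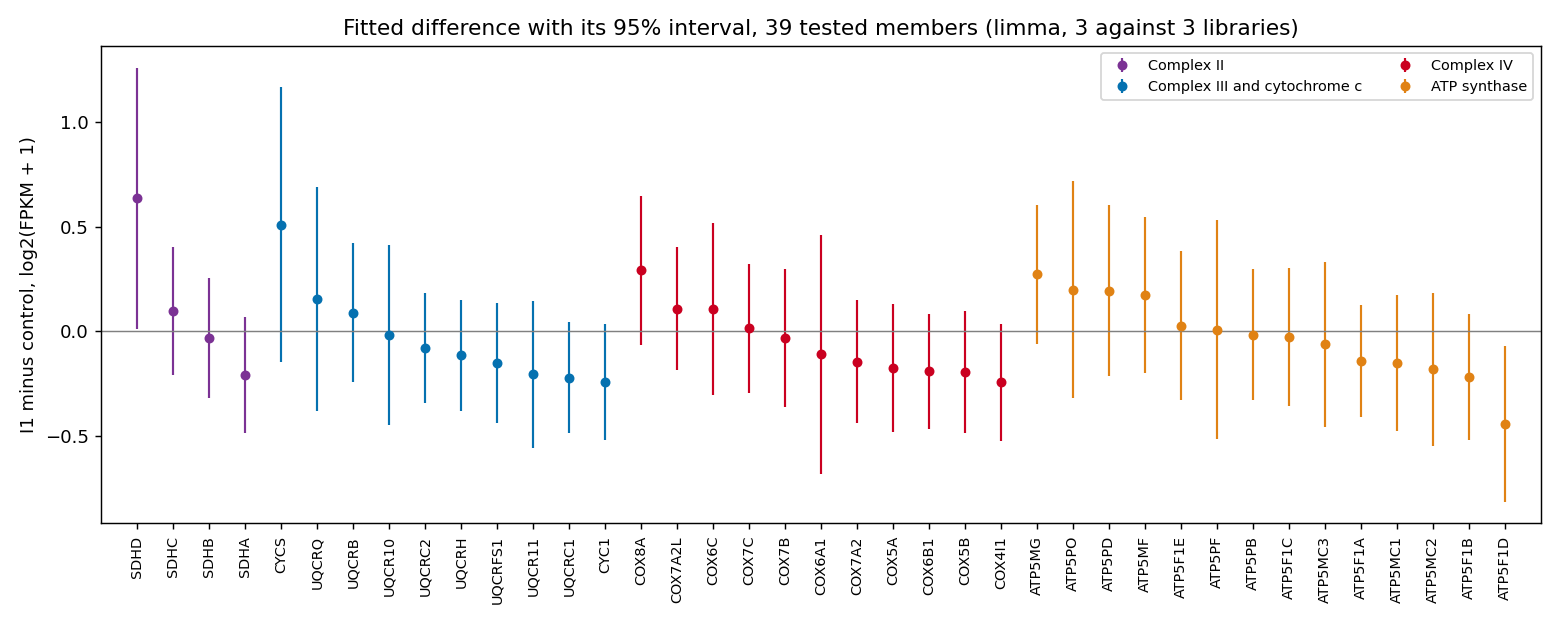
Fitted difference, I1 minus control on the log2(FPKM + 1) scale, with its 95% interval from limma (3 against 3 libraries) for the 39 tested members, grouped and coloured by complex. The intervals of SDHD and ATP5F1D alone leave out 0, and neither has an adjusted p under 0.05.

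In complex II the membrane anchor SDHD had the largest difference and lay above 0, and the flavoprotein SDHA lay below 0 in each pair. SDHA, the flavoprotein that oxidises succinate (ENSG00000073578, chr5:218241-256700, plus strand), had control values of 16.4, 18.8 and 17.2 FPKM and I1 values of 13.8, 16.4 and 14.7 FPKM. Control replicate 1 and I1 replicate 2 were nearly level, so the groups overlapped, yet I1 was the lower in each pair. The difference was -0.21 (SE 0.120, limma adjusted p = 0.468). SDHB, the iron-sulfur subunit that relays electrons, had 34.5, 38.5 and 33.2 FPKM in control and 35.3, 37.7 and 30.9 FPKM with I1. These groups overlapped almost wholly, and the difference was -0.03 (95% interval -0.32 to 0.25). SDHC, which anchors the enzyme in the inner membrane, had 4.997, 6.46 and 5.31 FPKM in control and 5.55, 6.35 and 6.16 FPKM with I1, a difference of 0.10 (95% interval -0.21 to 0.40).

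SDHD, the partner of SDHC in the membrane anchor (ENSG00000204370, chr11:112086773-112120013, plus strand), had 3.58, 8.70 and 5.62 FPKM in control and 7.80, 11.7 and 8.84 FPKM with I1. The groups overlapped, because control replicate 2 exceeded I1 replicate 1, but I1 was the higher in each pair, by 0.94, 0.39 and 0.57 on the log2(FPKM + 1) scale. The mean went from 5.97 ± 2.58 to 9.46 ± 2.03 FPKM (SD, n = 3 each), a difference of 0.64 (SE 0.270, 95% interval 0.01 to 1.26, limma unadjusted p = 0.0469, adjusted p = 0.467). With the replicate block its SE was 0.129 (limma unadjusted p = 0.00205, adjusted p = 0.140). The control libraries varied more in SDHD than in any other tested member, with a coefficient of variation of 43.2%. Control replicate 1 was the lowest library, and without it the difference was 0.37. Of the coding bases of SDHD, 47.7% are shared with another protein-coding gene, so its level is also uncertain in the way described above.

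Complex III and cytochrome c held more values below 0 than above, 7 of 10, with a median difference of -0.10. UQCRC1, a core protein of the matrix side of the complex (ENSG00000010256, chr3:48599002-48610976, minus strand), had 74.4, 75.0 and 72.2 FPKM in control and 58.6, 70.0 and 61.6 FPKM with I1. All 3 I1 libraries were below all 3 controls, which lay closer together than for any other tested member (coefficient of variation 1.95%). The mean went from 73.9 ± 1.44 to 63.4 ± 5.94 FPKM (SD, n = 3 each), a difference of -0.22 (SE 0.116, limma adjusted p = 0.467) that was -0.063 after the GC correction described below. CYC1, cytochrome c1, which hands electrons to cytochrome c, had 153, 139 and 134 FPKM in control and 110.4, 126 and 124 FPKM with I1. Again the groups did not overlap, and I1 replicate 1 was the lowest library. The difference was -0.24 (SE 0.120, limma adjusted p = 0.467). UQCRH, the hinge protein beside cytochrome c1, had 156, 147 and 135 FPKM in control and 136, 137 and 131 FPKM with I1. Control replicate 3 lay among the I1 values, and the difference was -0.12 (95% interval -0.38 to 0.15).

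CYCS, cytochrome c itself, which also activates caspases when it leaves the mitochondrion, was added after its values were seen because its difference was the largest of this group (chr7:25120091-25125361, minus strand). It had 18.8, 44.0 and 31.8 FPKM in control and 35.2, 49.7 and 44.7 FPKM with I1. I1 was the higher in each pair, but control replicate 2 exceeded I1 replicate 1, so the groups overlapped. The difference was 0.51 (SE 0.284, limma adjusted p = 0.467), with 0.19 without control replicate 1, 0.78 without control replicate 2 and 0.28 after the GC correction. With the replicate block its adjusted p was 0.140. The Rieske iron-sulfur protein UQCRFS1 differed by -0.15 and the second core protein UQCRC2 by -0.08, and the small subunits UQCR10, UQCRB and UQCRQ by -0.02, 0.09 and 0.16, all with adjusted limma p of 0.554 or more.

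Complex IV had 7 of 11 members below 0, with a median difference of -0.11. COX4I1, the subunit whose ubiquitous isoform takes part in regulation by ATP (ENSG00000131143, chr16:85798633-85807044, plus strand), had 71.6, 64.7 and 57.9 FPKM in control and 52.5, 56.3 and 54.1 FPKM with I1. Every I1 library was below every control, though the gap between I1 replicate 2 and control replicate 3 was small. The difference was -0.24 (SE 0.121, 95% interval -0.52 to 0.03, limma adjusted p = 0.467). COX5A, a matrix-side subunit, had 134, 124 and 112 FPKM in control and 106, 122 and 99.4 FPKM with I1, and the groups overlapped at I1 replicate 2. COX6B1, on the side of the complex that faces cytochrome c, had 105, 101 and 96.0 FPKM in control and 79.4, 92.1 and 93.6 FPKM with I1. Its groups did not overlap, and its difference was -0.19 (95% interval -0.47 to 0.08), with -0.12 without I1 replicate 1 and -0.094 after the GC correction. COX7C, a small membrane subunit, had 69.7, 72.1 and 59.7 FPKM in control and 59.9, 74.1 and 69.7 FPKM with I1. The groups covered the same range, and the difference was 0.01 (95% interval -0.29 to 0.32).

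COX8A, the smallest gene of the list by exon length (507 bases; ENSG00000176340, chr11:63974607-63976543, plus strand), had the largest difference above 0 in complex IV. It had 7.04, 6.83 and 6.69 FPKM in control and 7.34, 7.91 and 10.9 FPKM with I1, from 60 to 92 reads in a library. Every I1 library was above every control, and I1 replicate 3 stood well above the other two. The difference was 0.29 (SE 0.155, limma adjusted p = 0.467), and 0.13 without I1 replicate 3. It is among the 7 members with shared coding sequence (55.1%). The remaining members of complex IV lay between -0.19 (COX5B) and 0.11 (COX7A2L, which joins complexes III and IV in supercomplexes), with COX7A2 at -0.15, COX6A1 at -0.11, COX7B at -0.03 and COX6C at 0.10.

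The ATP synthase had 8 of 14 tested members below 0, with a median difference of -0.02. In its catalytic head, ATP5F1B (ENSG00000110955, chr12:56638175-56646068, minus strand) had 541, 521 and 471 FPKM in control and 456, 459 and 402 FPKM with I1. The groups did not overlap, and the mean went from 511 ± 35.6 to 439 ± 31.6 FPKM (SD, n = 3 each). The difference was -0.22 (SE 0.131, limma adjusted p = 0.478). ATP5F1A, the alpha subunit that alternates with beta in the head, had 76.2, 71.6 and 64.6 FPKM in control and 66.2, 64.8 and 61.0 FPKM with I1. These groups overlapped, and the difference was -0.14 (SE 0.115). By FPKM, which divides by exon length, beta stood several times above alpha in every library. When the same depth-scaled reads were divided by coding length, the mean values were closer, at 695 reads per coding kilobase for ATP5F1B and 354 for ATP5F1A, since the annotated exons of ATP5F1A come to 10908 bases and its coding sequence to 2076.

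In the central stalk that turns inside the head, ATP5F1C, the gamma subunit, had 108, 136 and 108 FPKM in control and 109.6, 128 and 106 FPKM with I1, a difference of -0.03 (SE 0.143). ATP5F1D, the delta subunit of the same stalk (ENSG00000099624, chr19:1241746-1244826, plus strand), had 50.8, 34.6 and 37.2 FPKM in control and 27.0, 30.2 and 31.1 FPKM with I1. All I1 libraries lay below all controls, and control replicate 1 stood apart from the other two controls. The mean went from 40.9 ± 8.68 to 29.4 ± 2.15 FPKM (SD, n = 3 each), a difference of -0.44 (SE 0.161, 95% interval -0.81 to -0.07, limma unadjusted p = 0.0249, adjusted p = 0.467). By pair it was -0.89, -0.19 and -0.25, and without control replicate 1 it was -0.28. The third stalk subunit, ATP5F1E, differed by 0.03.

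The c-ring, through which protons pass, is encoded by ATP5MC1, ATP5MC2 and ATP5MC3, whose products differ in their targeting sequence and give the same mature protein. ATP5MC1 had 30.7, 33.0 and 26.7 FPKM in control and 23.8, 30.9 and 26.5 FPKM with I1. ATP5MC2 had 71.2, 52.7 and 48.3 FPKM in control and 51.5, 50.5 and 47.4 FPKM with I1. ATP5MC3 had 24.2, 33.1 and 26.9 FPKM in control and 22.1, 31.8 and 26.6 FPKM with I1. By FPKM ATP5MC2 was the highest of the 3 in every library, but by mean depth-scaled reads per coding kilobase ATP5MC3 was (437, against 360.1 for ATP5MC2 and 183 for ATP5MC1). I1 was the lower in each pair for all 3 genes. Their differences of -0.15 (SE 0.140), -0.18 (SE 0.158) and -0.06 (SE 0.171) were near or below 1 SE of the fit without a block, and their groups overlapped. With the replicate block the SEs were smaller, at 0.098, 0.107 and 0.081 (limma unadjusted p = 0.168, 0.133 and 0.461). Without control replicate 1, the difference of ATP5MC2 was -0.02.

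ATP5MG, subunit g of the membrane part, where the enzyme forms dimers (ENSG00000167283), had 4.56, 6.53 and 5.88 FPKM in control and 6.86, 6.68 and 7.42 FPKM with I1. All I1 values exceeded all controls, and the difference was 0.27 (SE 0.144, limma adjusted p = 0.467). It was 0.15 without control replicate 1 and 0.018 after the GC correction. Its neighbour in the membrane part, subunit f (ATP5MF), differed by 0.17. In the peripheral stalk, which holds the head still, ATP5PB differed by -0.02, ATP5PF by 0.01, ATP5PD by 0.19 and ATP5PO by 0.20. All 4 stalk genes had an adjusted limma p of 0.591 or more.

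Direction differed between members with and without shared coding sequence, though only 7 share it. Of these 7 members, 5 were above 0, with a median difference of 0.20, whereas 22 of the other 32 were below 0, with a median of -0.07. Of all 11913 genes tested, 6489 were above 0, with a median of 0.03. After the GC correction described next, the medians were 0.12 and -0.17, and 29 of the 32 were below 0. The 7 were also among the 11 members below 9 FPKM. Of the other low members, SDHC, UQCRB and UQCRQ were tested, and each lay above 0 as deposited (0.10, 0.09 and 0.16). On the GC-corrected scale SDHC lay at -0.078, UQCRB at -0.29 and UQCRQ at 0.19. The part of sharing or of low level in the difference was not tested. With a promoter entry and the NRF1 core, 8 of 11 tested members were below 0 (median -0.11), and without the core 12 of 20 (median -0.03). After the GC correction the order of the medians turned, to -0.11 with the core and -0.15 without.

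GC content moved with the difference. The members' transcripts ran from 38.2% GC (UQCRB) to 67.6% GC (ATP5F1D), and across the 39 members the difference and the GC content had a Pearson r of -0.455 and a Spearman rho of -0.531. Across all 11899 tested genes with a GC value, r was -0.689 and rho -0.763, so the sign was shared and the members' values were smaller in size. The median GC content was 46.96% for the tested members and 48.70% for all genes tested. Genes in 1 set of libraries are not independent. The 20 members of higher GC content had a median difference of -0.18, with 15 below 0, and the 19 of lower GC content a median of 0.01, with 9 below 0. In pair 1 the medians were -0.32 and -0.07, in pair 2 -0.09 and -0.02, and in pair 3 -0.04 and 0.07.

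When a smooth curve on GC content was taken from each library, rho over all genes became -0.00694. The median difference of the members then was -0.13, where that of all genes was -0.01, and 31 of 39 members (79.5%) lay below 0, against 53.1% of all genes. ATP5F1D went from -0.44 to -0.19 and CYC1 from -0.24 to -0.04, while SDHD kept 0.55 and COX4I1 -0.20. ATP5F1C went from -0.03 to -0.25. The sign turned in 7 members, all from above to below 0: UQCRB (0.088 to -0.29), ATP5F1E (0.027 to -0.34), COX7C (0.015 to -0.27), ATP5PF (0.0064 to -0.11), COX6C (0.10 to -0.081), COX7A2L (0.11 to -0.068) and SDHC (0.096 to -0.078). None of the members or of all genes (0.0%) passed the adjusted threshold of limma on this scale. At an unadjusted p under 0.05 there were 4 members (10.3%, against 4.86% of all genes), with UQCRFS1, COX7A2 and COX7B lower (3 of 39, against 2.52%) and COX8A higher (1 of 39, against 2.34%). With the correction and the replicate block together there were 15 (38.5%, against 16.1%), of which 12 were lower with I1 (30.8%, against 9.36%) and 3 higher (7.69%, against 6.73%), and 1 of all genes (0.0084%) but no member passed the adjusted threshold. After the correction the members' differences rose with GC content (rho 0.420), so a trend of the opposite sign stood among them.

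**Figure D4:**
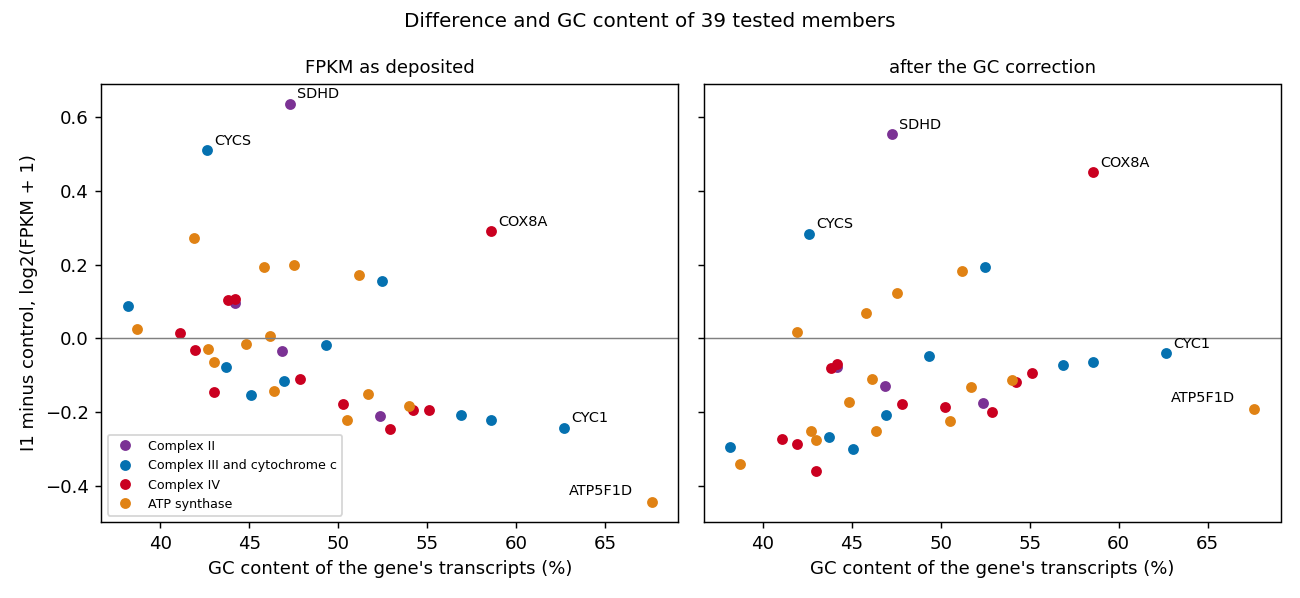
Difference of each of the 39 tested members, I1 minus control in log2(FPKM + 1), against the GC content of its transcripts (percent), as deposited (left) and after the GC correction (right), coloured by complex. On the left ATP5F1D, at 67.6% GC, lies lowest at -0.44 and on the right it lies at -0.19, while SDHD stays highest in both.

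The libraries behind these differences were not alike. Against each gene's own mean, the members' median was -0.04, 0.14 and -0.05 in control replicates 1, 2 and 3 and -0.17, 0.08 and -0.03 in I1 replicates 1, 2 and 3. In control replicate 2, 36 of 39 members lay above their own mean, and in I1 replicate 1, 32 of 39 lay below it. Of all 11913 genes tested, 6533 lay above their own mean in control replicate 2 and 5130 below it in I1 replicate 1. The medians of all genes in these libraries were 0.02 and 0.03. For the members of higher GC content alone, I1 replicate 1 had 19 of 20 below. Over all tested genes, control replicate 1 stood apart on the first principal component (-43.8, where the others lay between -2.90 and 19.8). The median difference of the members was -0.09 without that library and -0.14 without I1 replicate 2, each with 28 of 39 below 0. It turned to 0.027 without control replicate 2 and to 0.0018 without I1 replicate 1, each with 19 of 39 below 0. The medians and counts without a library are given for the members alone, so for them a shift of the whole table is not set apart. The summed level of the 39 members was 2121, 2166 and 1939.8 FPKM in control and 1809.9, 2039.5 and 1835 FPKM with I1, and the groups overlapped.

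**Figure D5:**
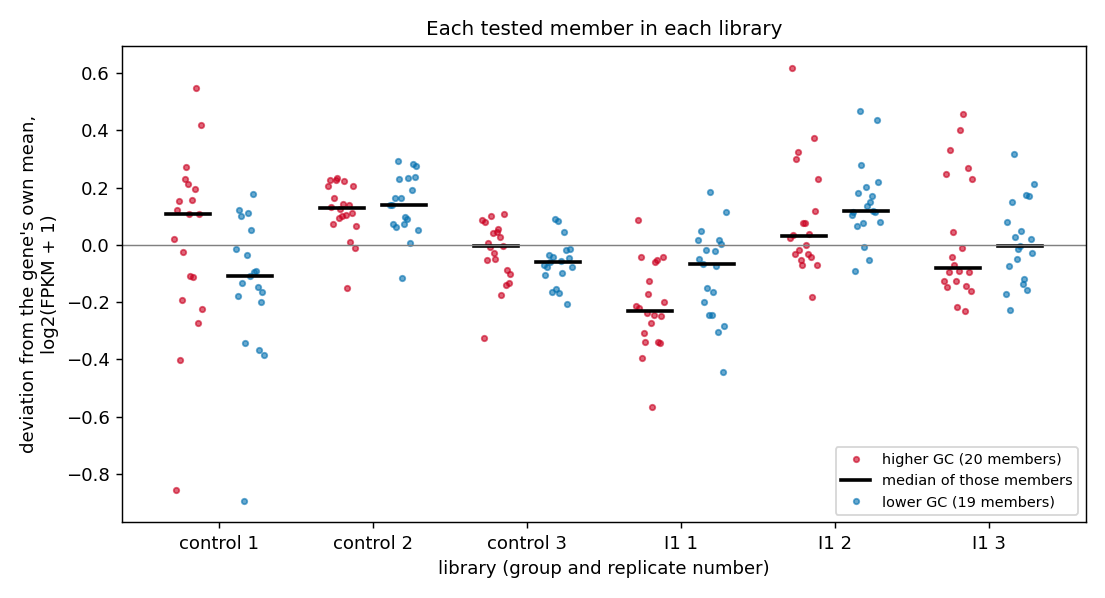
Deviation of each tested member from its own mean over 6 libraries, in log2(FPKM + 1), by library, for the 20 members of higher and the 19 of lower GC content. Black bars are medians. The lowest is that of the higher GC members in I1 replicate 1, at -0.23.

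The other genes of the pathway were read from lists of isoforms, accessory and assembly proteins, mitochondrially encoded partners and regulators. Of 76 listed genes 62 were tested, none passed the adjusted threshold of limma, and their median difference was 0.02, with 30 below 0 and 32 above. After the GC correction it was -0.053, with 39 below 0 and 23 above, where that of all genes was -0.01. As deposited, an unadjusted p under 0.05 was found for 5 (8.06%, against 9.57% of all genes): HIGD1A, SDHAF4, LYRM7 and TFAM higher and ESRRA lower with I1.

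The genes encoded in mitochondrial DNA that share these complexes included the most abundant transcripts of these lists, with MT-ATP8 far below the other 5 by FPKM (0.48 difference, SE 0.426). MT-ATP8 (chrM:8366-8572) overlaps MT-ATP6 (chrM:8527-9207) on the same strand. Reads in the shared bases could be assigned to either gene or to neither, so the level of MT-ATP8 is uncertain. The part of this in its level was not tested. MT-CO3, a core subunit of complex IV, had 9298, 9271 and 8574 FPKM in control and 6752, 8322 and 8853 FPKM with I1. MT-CYB, the cytochrome b of complex III, had 2727, 2209 and 2481 FPKM in control and 1916, 2240.3 and 2036 FPKM with I1. The groups overlapped in both, with I1 replicate 1 lowest. Their differences were -0.19 and -0.26 (limma adjusted p = 0.612 and 0.486). Of the 6 genes, 5 were below 0, with pair medians of -0.46, -0.12 and 0.04, so the third pair did not follow the other two.

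Among assembly factors, LYRM7, a chaperone of the Rieske protein UQCRFS1, had the largest difference of any listed gene. It had 3.65, 7.37 and 5.48 FPKM in control and 11.8, 10.3 and 12.002 FPKM with I1, with no overlap between the groups. The difference was 0.97 (SE 0.209, 95% interval 0.48 to 1.45, limma unadjusted p = 0.00171, adjusted p = 0.467), and 0.56 after the GC correction. It was also the most abundant of the complex III factors over the 6 libraries (8.43 FPKM), and UQCC1, at 8.01 FPKM, differed by -0.16. For complex II, SDHAF4, which binds SDHA before assembly, had 3.13 ± 0.526 FPKM in control and 4.37 ± 0.610 FPKM with I1 (SD, n = 3 each), and SDHAF1, which serves the iron-sulfur subunit, 15.4 ± 4.32 and 13.1 ± 3.06 FPKM. Their differences of 0.38 and -0.21 were 0.21 and -0.0016 after the correction. Of the complex IV factors 21 of 26 were tested, with 13 above 0 and a median of 0.083, which turned to -0.039 after the GC correction. LRPPRC, which stabilises mitochondrial messenger RNA, had 52.0 ± 5.18 FPKM in control and 61.5 ± 3.33 FPKM with I1, a difference of 0.24 that also turned, to -0.039. SCO1, a copper chaperone, had 3.88 ± 0.387 and 4.89 ± 0.136 FPKM, a difference of 0.27 and, corrected, of 0.15. TMEM70 and ATPAF1, which help build the ATP synthase, differed by -0.07 and -0.08.

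Proteins that attach to finished complexes varied likewise. HIGD1A, which binds complex IV, had 5.34 ± 1.58 FPKM in control and 8.60 ± 1.65 FPKM with I1 (SD, n = 3 each), a difference of 0.61 (limma unadjusted p = 0.0171, adjusted p = 0.467), and 0.28 after the GC correction. NDUFA4, a further subunit of that complex, differed by -0.01 as deposited and by -0.34 after the correction (limma unadjusted p = 0.0250). ATP5MK and DMAC2L, accessory to the ATP synthase, differed by 0.19 and 0.28, and by 0.023 and 0.10 after the correction. Of the 8 isoforms and near copies only UQCRHL, a copy of UQCRH, was tested, at 2.61 ± 0.130 and 2.33 ± 0.582 FPKM. Tissue isoforms with values, such as COX7A1 and COX8C, lay below 1 FPKM in every library.

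Of the regulators 12 of 13 were tested, with 8 above 0 and a median of 0.13. After the GC correction their median was -0.010, with 6 below 0 and 6 above. TFAM, which packages and transcribes mitochondrial DNA, had 8.30, 19.9 and 13.2 FPKM in control and 19.4, 24.7 and 20.9 FPKM with I1. Control replicate 2 exceeded I1 replicate 1, so the groups overlapped, and the difference was 0.69 (SE 0.270, limma unadjusted p = 0.0348, adjusted p = 0.467), and 0.34 after the GC correction. PPRC1, a coactivator of the PGC-1 family and the most abundant regulator, had 27.5 ± 1.496 FPKM in control and 24.9 ± 1.52 FPKM with I1 (SD, n = 3 each). PPARGC1A, the coactivator best known for mitochondrial biogenesis, was at 0 in 5 libraries and 0.0111 FPKM in I1 replicate 3.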

How the data were processed

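Messenger RNA of 3 control and 3 I1 samples was measured. The authors deposited FPKM values for 29810 genes in 6 columns. The tools named per the submitters' processing notes are Trimmomatic, HISAT2, Cufflinks and HTSeq, with the build hg38. Their versions, the gene annotation and whether reads were counted by strand were not given in the sources used here. Per the labels' protocols the kit was stranded. The name of the table refers to different lines and a different agent; its columns carry the titles of these 6 samples and were used for that reason. With exon lengths of GENCODE release 29, 95.9% of matched genes gave whole reads in all libraries (tolerance 0.05 reads), all 40 members among them, which gave the depth.

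Differences were fitted with limma 3.58.1 (R 4.3.3; Python 3.11.15 for tables) with an intensity trend on log2(FPKM + 1), 2-sided, over the 11913 genes that reached 1 FPKM in 3 or more libraries. This scale understates differences of low genes. The fit was also run on simulated counts. These held neither the pairing nor the GC trend of these libraries, so no conclusion is drawn from them. Same-numbered samples of the 2 groups deviated together from their group means (correlations of 0.476, 0.457 and 0.412; -0.348 to -0.0987 for other numbers), so the numbers in the titles were taken to pair the samples. The GC correction subtracted a loess curve (span 0.3) from each library. Other settings were pseudocounts of 0.1 and 0.5, other filters and scalings, and leaving out each library.

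The members and lists were chosen with earlier results of these data known. Values in every sample are given for complex II, for the 3 most abundant members and the 2 with the smallest p in each other complex, and for the c-ring genes; of each pathway list the most abundant gene and the one with the smallest p are named. Names followed GENCODE and current symbols, and coordinates are 1-based on hg38. No protein sequences were used here.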

Additional observations from a re-analysis of the deposited data

How the results depend on the processing

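The number of genes called was 4 of all tested. It was 0 with a pseudocount of 0.1 or 0.5, with no filter, with a mean of at least 5 FPKM, with protein-coding genes only and with the GC correction (1076, 1104, 1726, 685, 1042 and 578 genes at an unadjusted limma p under 0.05). It was 2 with quantile normalization, 1 with the GC correction and replicate block, and 0 to 2 when a library was left out. With the replicate block alone it was 6. No member was called under any of the 16 settings, the smallest adjusted p being 0.140, so the block changed no call of a member. The members' median difference of -0.03 was -0.13 with the GC correction, with or without the replicate block, and -0.14 to 0.027 when a library was left out. Of 320 differences of the 20 members printed by rule, 304 kept their sign and 16, in 5 members, did not. COX7C (0.01) was -0.020 with median ratio scaling, -0.27 with the GC correction, with or without the block, and -0.066 to 0.10 without a library. SDHC (0.10) was -0.078 with the GC correction, with or without the block. ATP5F1C (-0.03) was 0.072 with quantile normalization and -0.11 to 0.083 without a library. SDHB ran from -0.095 to 0.044 and ATP5MC3 from -0.19 to 0.063 without a library. The cause was not tested. Depth limits COX6A1 (from 17 reads in a library), ATP5PO (from 41) and COX8A (from 60).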

Other observations

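FPKM divides by the whole annotated exon length, which ran from 507 bases (COX8A) to 14160 bases (SDHC) among the members, while coding length ran from 153 to 2126 bases. When reads of all exons, noncoding parts included, were divided by coding length, the order of levels changed. This division raises genes with long noncoding exon parts, such as ATP5F1E with 5126 exon bases and 153 coding bases. COX7C then ranked 1, ATP5F1B 2, ATP5F1E 3 and CYCS 4, where by FPKM ATP5F1E ranked 25 and CYCS 16. SDHC moved from rank 35 to 25. Across the 40 members the ranks by the 2 lengths had a Spearman rho of 0.783.

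Pseudogenes of any kind named after the gene were annotated for 31 of the 40 members, 173 in all, with 42 for CYCS and 17 for COX6C. Of these, 59 had values, and the highest mean, 9.17 FPKM, belonged to a copy of SDHA. How reads matching both a gene and its copy were counted was not stated.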
